A study of Mus musculus with 78 samples.

Results

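Genes of the fibrous matrix were followed through the series, chosen by name from the mRNA count table: Col1a1, Col1a2, Col3a1, Col5a1, Col5a2, Col12a1, Postn, Fn1, Tnc and Fbn1. These 10 genes were among 52459 named genes, of which 18857 passed the low-count filter and were tested. All 10 members were tested. The tissue was cartilage made in culture by chondrocytes derived from murine induced pluripotent cells, for which the labels give no strain, genotype or cell line. Constructs received interleukin-1 beta (IL-1beta, at 1 ng/mL) or tumor necrosis factor alpha (TNF-alpha, at 20 ng/mL), which are inflammatory signals of the arthritic joint, or were left as controls. Each cytokine and its control were sampled at 4, 12, 24 and 72 h, and controls also at 0 h, with 3 mRNA libraries a group except for the control at 0 h, where 2 were used.

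Fibrous matrix is built around collagen fibrils. Type I collagen is a trimer of Col1a1 and Col1a2 chains, type III a trimer of Col3a1 chains, type V joins Col5a1 and Col5a2 chains and sets fibril diameter, and type XII (Col12a1) lies on fibril surfaces. Periostin (Postn), fibronectin (Fn1) and tenascin C (Tnc) are secreted glycoproteins that bind collagen and cell surface receptors, and fibrillin 1 (Fbn1) forms microfibrils. Hyaline cartilage is built mainly of type II, IX and XI collagen and aggrecan, and fibrous collagens are known there from fibrocartilage and from chondrocytes that lose their differentiated state in culture.

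The 38 mRNA libraries analysed held between 11163263 and 68655350 counts. A further column, that of control 0 h replicate b, held 220180 counts, and its member counts were 0 to 21 against 2716 to 1953368 elsewhere, so it was left out. The libraries of IL-1beta at 4 h and of the controls at 0 and 4 h, 8 in all, stood apart from the other 30 in 10 genes that were at least 4-fold lower there without overlap. TNF-alpha 4 h lay on the other side from its control and from IL-1beta 4 h, so its values are also given against control 12 h, and the comparison of the cytokines at 4 h crosses this parting. Whether replicates were separate cultures is not stated in the labels, so p-values measure only the spread between these libraries. In such bulk tissue, fewer cells of a type and less RNA per cell cannot be told apart.

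The label of cartilage held in the cartilage matrix genes, while some fibroblast and tendon markers were also present. Col2a1, the main cartilage collagen, ranged from 8640 to 123000 CPM, counts scaled by library size, with a median of 52200. The lowest median of the 13 cartilage matrix genes was that of Matn1, at 7.69 CPM (1.29 to 121 CPM). All 13 were detected in all 38 libraries, but so were markers of other tissues such as Myh11 and Vwf, so detection alone does not tell the tissue. Some markers of other tissues were near 0, among them Ptprc, of leukocytes, at most 0.541 CPM, Cdh5, of endothelium, at most 0.276 CPM, and Bglap, of osteoblasts, at most 0.145 CPM. Others of the same lists were higher, reaching 54.4 CPM for Cd68 and 26 CPM for Lyz2 (leukocytes), 36.9 CPM for Dmp1, 35.3 CPM for Ibsp and 33.7 CPM for Runx2 (osteoblasts) and 60.7 CPM for Acta2 (smooth muscle). Some fibroblast and tendon markers were higher still, with Lum at 697 to 3640 CPM, Dcn at 412 to 3530 CPM and Pdgfra at 128 to 416 CPM. In the same list Pi16 reached at most 0.669 CPM and Twist2 at most 2.9 CPM.

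Per kilobase of the deposited gene length, fibronectin was the most abundant member at 2382 CPM per kb averaged over the libraries, rank 11 among all genes tested. The type I chains followed with 865.2 CPM per kb for Col1a2 (rank 23) and 768.1 CPM per kb for Col1a1 (rank 26). Col3a1 stood at 645.7 and Col5a2 at 564.5 CPM per kb. Below them lay Postn at 315.8, Col12a1 at 206, Col5a1 at 177.2, Tnc at 83.99 and Fbn1 at 41.86 CPM per kb. In CPM the widest range over libraries belonged to Col1a1, whose highest library was 15 times its lowest (10570 against 702.5 CPM), and to Tnc, with a ratio of 12.2. Fbn1 moved least, with a ratio of 1.7. Together the members took 8.51% of all counts in control 0 h, a mean over 2 libraries, and at 72 h they took 5.01% ± 0.08 with IL-1beta, 4.71% ± 0.28 with TNF-alpha and 5.25% ± 0.30 in controls (SD, n = 3 each).

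**Figure D1:**
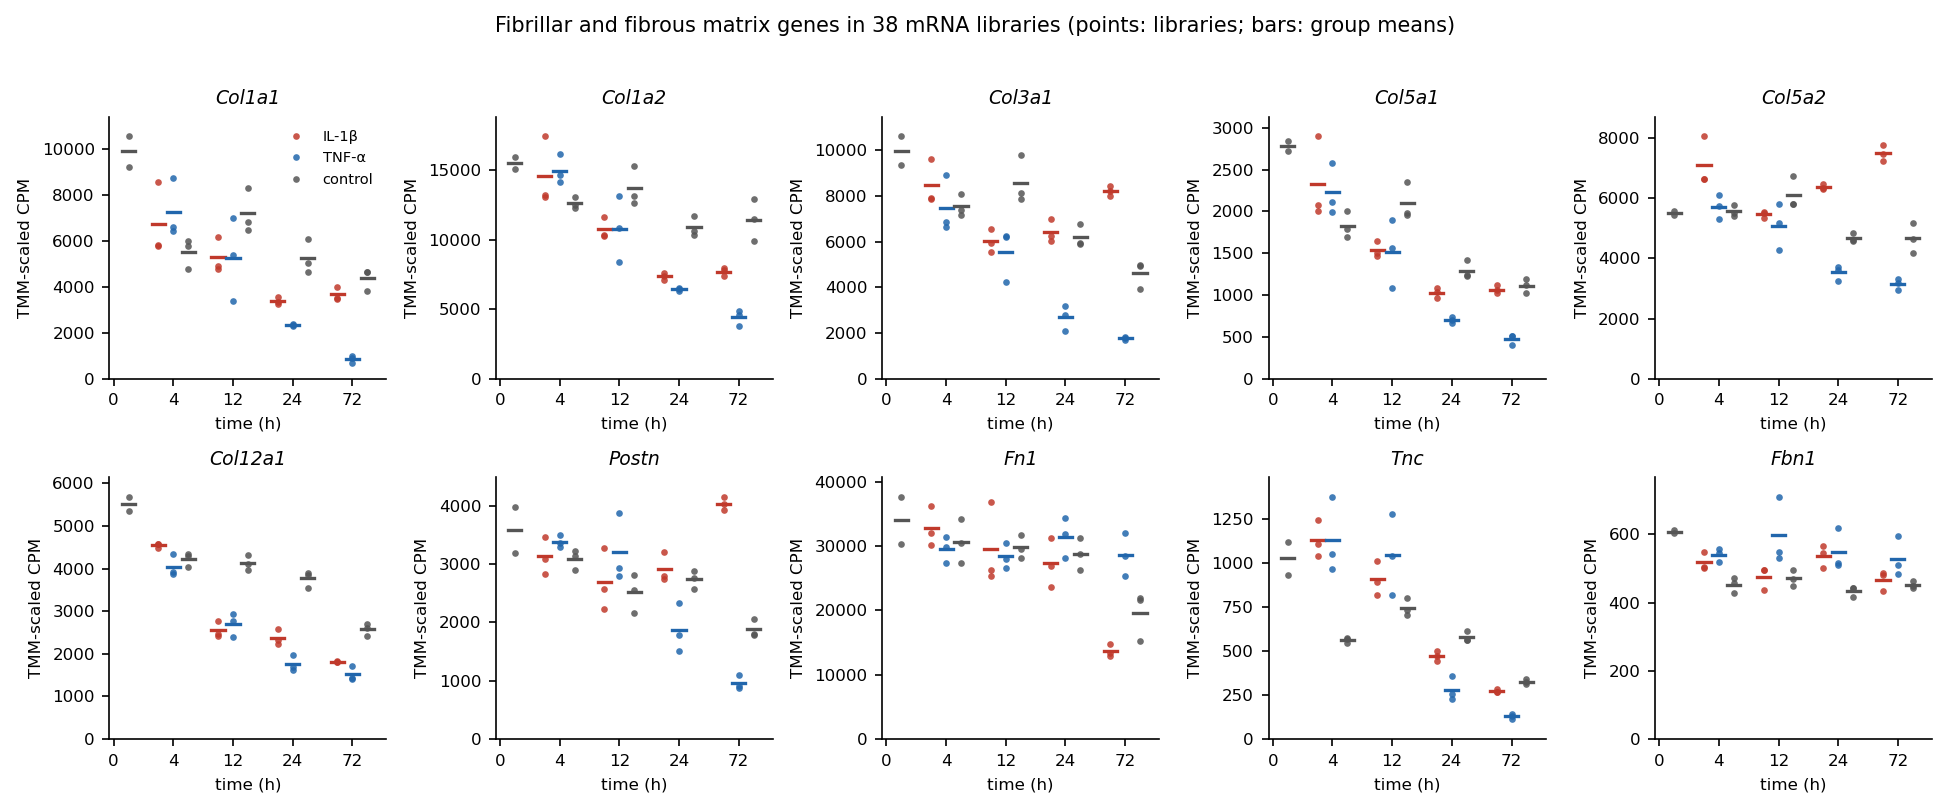
CPM of the 10 members in each library (points) with the group mean (short bar) for IL-1beta, TNF-alpha and control, at evenly spaced sampling times in hours. At 72 h the TNF-alpha libraries of Col1a1 sat between 702.5 and 993.6 CPM, below all IL-1beta and control libraries, and the IL-1beta libraries of Postn sat between 3924 and 4156 CPM, above all others of that time.

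Most members declined in the controls themselves. Between control 72 h and control 12 h 8 of 10 members fell and none rose, where 18.3% of all genes tested fell and 18.7% rose at an adjusted p under 0.05 (edgeR quasi-likelihood F test, Benjamini-Hochberg adjustment, as for all calls below). The members' median log2 fold change there was −0.64 against 0.00 for all genes. Tenascin C fell most, averaging 326 ± 15.2 CPM in control 72 h and 746.7 ± 50.2 CPM in control 12 h (SD, n = 3 each), a log2 fold change of −1.20 (SE 0.135, adjusted p = 1.15e-08). Col5a1 (−0.91), Col3a1 (−0.90), Col1a1 (−0.72), Col12a1 (−0.68), Fn1 (−0.60), Postn (−0.42) and Col5a2 (−0.39) also fell, all on the log2 scale, Postn losing its call without control 12 h replicate a or control 72 h replicate c. Col1a2, with −0.26 (adjusted p = 0.0804), and Fbn1, with −0.06 (adjusted p = 0.601), did not pass the test. Against control 0 h, control 72 h had 9 members lower and none higher, where 19.6% of all genes were lower and 18% higher. These 2 control groups lie on opposite sides of the parting of the libraries. Control 4 h had 5 members below control 0 h and none above, where 10.2% of all genes were lower and 10.2% higher, among them Tnc (−0.87) and Col1a1 (−0.84). Control 24 h had 5 members below control 12 h and none above, where 11.5% of all genes were lower and 10.2% higher, but 2 without replicate c of either group and 3 without replicate a of either. The count at 4 h fell to 3 without control 0 h replicate c. Each cytokine effect below is therefore a difference from a control of the same time, and the 2 cytokines share those controls.

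At 4 h the response was small and led by tenascin C, a glycoprotein known to be induced in injured and inflamed tissue. Tnc had 1244, 1039 and 1106 CPM with IL-1beta and 1052, 966 and 1377 CPM with TNF-alpha, against 545.4, 569.5 and 573.7 CPM in control libraries. Both cytokine groups lay wholly above the control. The log2 fold change was 1.01 (SE 0.133, adjusted p = 2.43e-07) with IL-1beta and 1.01 (SE 0.133, adjusted p = 4.38e-07) with TNF-alpha. Between IL-1beta and TNF-alpha, whose libraries lie on opposite sides of the parting at this time, the difference was −0.00 with a 95% interval of −0.27 to 0.27 on the log2 scale. The 2 libraries of control 0 h held 931 and 1121 CPM of Tnc, near the levels of both cytokine groups at 4 h. Against control 12 h, a comparison added after the data were seen, the TNF-alpha value for Tnc was 0.60 (adjusted p = 0.000738).

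With IL-1beta at 4 h 3 of 10 members rose and none fell, where 15.5% of all genes rose and 17.2% fell. Beside Tnc these were Col5a2, at 0.36 (SE 0.0889, adjusted p = 0.00205), and Col5a1, at 0.35 (SE 0.135, adjusted p = 0.0443), the chains of type V collagen. Without IL-1beta 4 h replicate a the Col5a1 value was 0.18 (adjusted p = 0.351), and the call was also lost without control 4 h replicate a or b. With TNF-alpha 2 of 10 rose and none fell, where 10.9% of all genes rose and 10.6% fell. They were Tnc and Fbn1, with Fbn1 at 0.26 (adjusted p = 0.0292), a call lost without control 4 h replicate b or c or TNF-alpha 4 h replicate b or c. Against control 12 h the TNF-alpha value for Fbn1 was 0.20 (adjusted p = 0.0927), and Postn passed the test with 0.43 (adjusted p = 0.015). In that comparison 2 of 10 members rose, Tnc and Postn, and none fell, where 13.4% of all genes rose and 12.7% fell. The cytokines differed at 4 h, across the parting, in 1 member, Col5a2, higher with IL-1beta by 0.32 (SE 0.0889, adjusted p = 0.0145), where 5.71% of all genes were higher and 6.66% lower with IL-1beta, and this call was lost without replicate a of either cytokine.

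At 12 h most of the collagen chains were lower with either cytokine. IL-1beta lowered 5 of 10 members, all collagen chains, and raised none, where 15% of all genes fell and 14.5% rose, with medians of −0.26 for the members and −0.02 for all genes on the log2 scale. TNF-alpha lowered 6, again all collagen chains, and raised the glycoproteins Tnc (0.48), Postn (0.35) and Fbn1 (0.34), where 13.8% of all genes fell and 14.6% rose. Without TNF-alpha 12 h replicate b none of these 3 rises passed the test, at 0.33 for Tnc (adjusted p = 0.0676), 0.21 for Postn (0.294) and 0.21 for Fbn1 (0.0526). Col12a1, the chain on fibril surfaces, had 2467, 2423 and 2764 CPM with IL-1beta and 2939, 2767 and 2407 CPM with TNF-alpha, against 4314, 4100 and 3977 CPM in controls. Neither cytokine group overlapped the control. Its log2 fold change was −0.69 (SE 0.0814, adjusted p = 1.73e-08) with IL-1beta and −0.61 (SE 0.0813, adjusted p = 2.82e-07) with TNF-alpha.

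The other collagen calls at 12 h were smaller than that of Col12a1 with IL-1beta, and with TNF-alpha all but that of Col3a1 were. Col3a1 fell by 0.51 on the log2 scale with IL-1beta and by 0.63 with TNF-alpha. Col5a1 fell by 0.45 with IL-1beta and by 0.47 with TNF-alpha. Without control 12 h replicate c its values were −0.35 with IL-1beta (adjusted p = 0.0752) and −0.36 with TNF-alpha (adjusted p = 0.068), and without TNF-alpha 12 h replicate c the TNF-alpha value was −0.28 (adjusted p = 0.112). Col1a1 was near the threshold, at −0.45 (adjusted p = 0.0491) with IL-1beta and −0.46 (adjusted p = 0.0455) with TNF-alpha. The TNF-alpha libraries of Col1a1 were spread widely, at 5417, 6987 and 3381 CPM, and without replicate c the value was −0.22 (adjusted p = 0.365). Leaving out control 12 h replicate c reduced the calls to 2 with IL-1beta and 4 with TNF-alpha, of which 2 were falls. Leaving out IL-1beta 12 h replicate a or b left 3 with IL-1beta. Without TNF-alpha 12 h replicate c there were 5 calls with TNF-alpha, 2 of them falls, and without replicate a 7, with 4 falls. Between the cytokines 1 member differed at 12 h, Fbn1, lower with IL-1beta at a log2 difference of −0.33 (adjusted p = 0.00952), where 5.88% of all genes were lower and 4.7% higher with IL-1beta, and this call was lost without IL-1beta 12 h replicate a or TNF-alpha 12 h replicate b.

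At 24 h the cytokines differed in most members. IL-1beta lowered 3 of 10 members and raised 2, where 15.6% of all genes fell and 17% rose, with medians of −0.18 for the members and −0.01 for all genes. TNF-alpha lowered 8 and raised 1, where 11.9% of all genes fell and 13.2% rose, with medians of −0.82 for the members and −0.02 for all genes. Col3a1 had 6239, 7015 and 6016 CPM with IL-1beta and 3185, 2095 and 2796 CPM with TNF-alpha, against 5928, 6770 and 5897 CPM in controls. The IL-1beta and control libraries overlapped and the TNF-alpha libraries lay below both. The log2 fold change was 0.05 (SE 0.134, adjusted p = 0.813) with IL-1beta and −1.20 (SE 0.136, adjusted p = 1.11e-08) with TNF-alpha.

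Col12a1 fell with both cytokines at 24 h, by 0.66 on the log2 scale with IL-1beta and by 1.10 with TNF-alpha. The type I chains fell as well, Col1a1 by 0.64 with IL-1beta and 1.17 with TNF-alpha, and Col1a2 by 0.56 with IL-1beta and 0.76 with TNF-alpha. Col5a2 rose by 0.45 with IL-1beta (adjusted p = 0.000138) and fell by 0.40 with TNF-alpha (adjusted p = 0.000672). Fbn1 rose with both, by 0.31 with IL-1beta (adjusted p = 0.00558) and 0.34 with TNF-alpha (adjusted p = 0.00336). The TNF-alpha value was 0.24 (adjusted p = 0.0584) without TNF-alpha 24 h replicate a. In all, 7 of 10 members were higher with IL-1beta than with TNF-alpha and none was lower, where 9.31% of all genes were higher and 10.8% lower with IL-1beta, led by Col3a1 (1.25), Col5a2 (0.85), Tnc (0.75) and Postn (0.64).

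At 72 h IL-1beta had raised Postn, Col3a1 and Col5a2 and lowered Col1a2, Fn1 and Col12a1, whereas TNF-alpha had lowered every collagen chain among the members, with Postn and Tnc, and raised Fn1 and Fbn1. With IL-1beta 3 of 10 members rose and 3 fell, where 19.3% of all genes rose and 19.7% fell. With TNF-alpha 2 of 10 rose and 8 fell, where 17.8% of all genes rose and 18.3% fell. The members' median log2 fold change was −0.16 with IL-1beta and −1.09 with TNF-alpha, beside medians of 0.00 with IL-1beta and −0.01 with TNF-alpha over all genes. Between the cytokines 9 of 10 differed, 8 higher and 1 lower with IL-1beta, where 19.4% of all genes were higher and 20.4% lower with IL-1beta. The members' median was 1.11, against −0.01 over all genes. The share of counts on mitochondrial genes moved with the cytokines too, between 0.574% and 0.594% in IL-1beta libraries and between 0.568% and 0.610% in TNF-alpha libraries, against 0.384% to 0.443% in controls at 72 h. At 24 h it lay between 0.551% and 0.618% in IL-1beta libraries and between 0.550% and 0.564% in TNF-alpha libraries, against 0.355% to 0.384% in controls. Its part in the results was not tested.

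**Figure D2:**
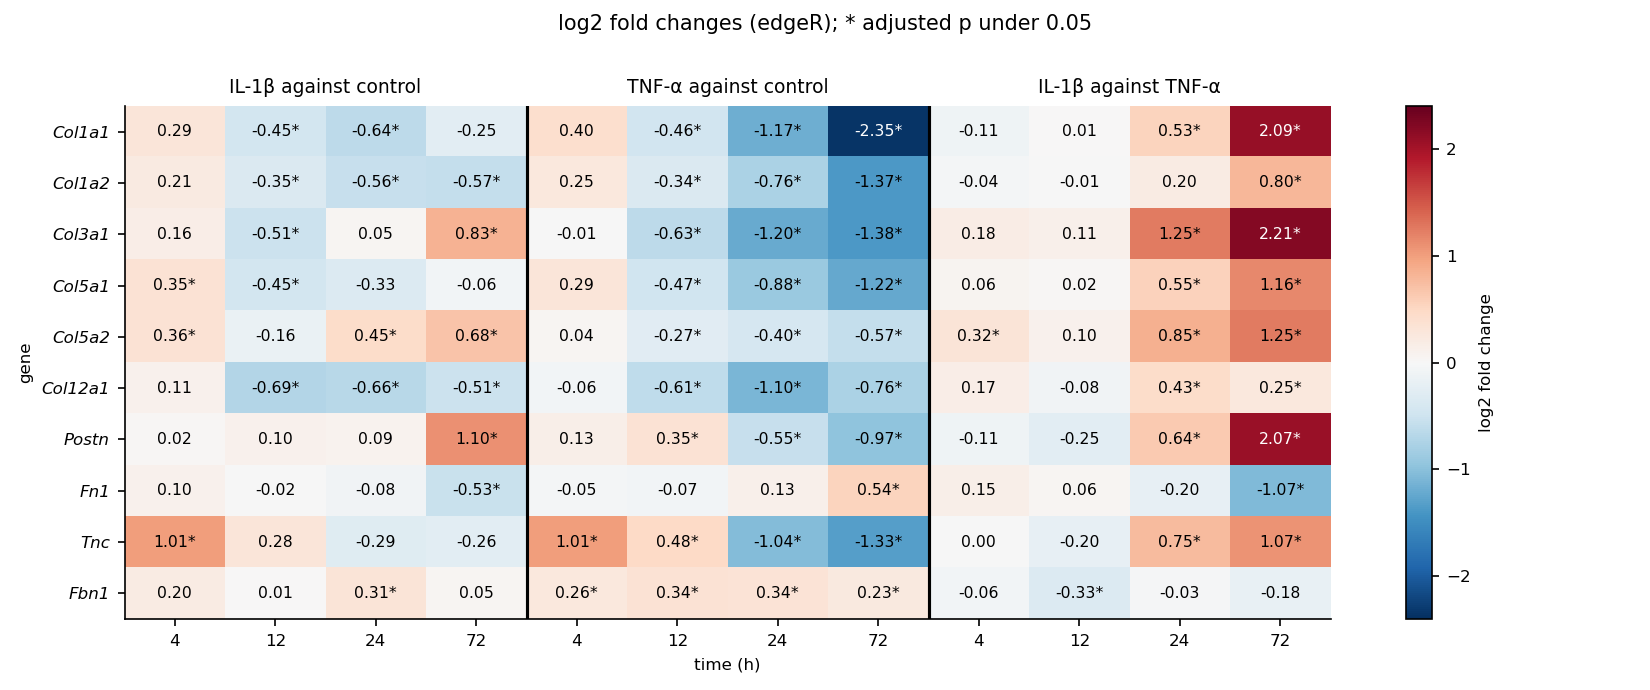
Log2 fold changes of the 10 members for IL-1beta against control, TNF-alpha against control and IL-1beta against TNF-alpha at 4, 12, 24 and 72 h (edgeR), where colour and number give the value and an asterisk marks an adjusted p under 0.05. At 72 h Postn, Col3a1 and Col5a2 are higher with IL-1beta and lower with TNF-alpha than in controls, and Fn1 shows the opposite pair of signs.

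Of the members, the type I chain Col1a1 was lowered most by TNF-alpha at 72 h. Col1a1 had 3485, 3523 and 4016 CPM with IL-1beta and 702.5, 993.6 and 888.2 CPM with TNF-alpha, against 4660, 3820 and 4670 CPM in controls at 72 h. The TNF-alpha libraries lay far below the rest, and the IL-1beta range reached into that of the controls. With TNF-alpha Col1a1 was 5.09-fold lower, a log2 fold change of −2.35 (SE 0.181, adjusted p = 8.53e-13), and with IL-1beta the value was −0.25 with a 95% interval of −0.61 to 0.10 (adjusted p = 0.262). Its partner Col1a2 had 7804, 7369 and 7984 CPM with IL-1beta and 3796, 4913 and 4578 CPM with TNF-alpha, against 11510, 9918 and 12910 CPM in controls. The 3 groups did not overlap, and Col1a2 fell by 0.57 (SE 0.118, adjusted p = 0.000172) with IL-1beta and by 1.37 (SE 0.12, adjusted p = 1.9e-11) with TNF-alpha on the log2 scale.

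The ratio of the 2 type I chains differed between the groups at 72 h without overlap. Per kilobase, Col1a1 to Col1a2 was 0.901 ± 0.0531 with IL-1beta and 0.367 ± 0.0165 with TNF-alpha, against 0.727 ± 0.0406 in controls at 72 h (SD, n = 3 each), and 1.16 and 1.25 in the 2 libraries of control 0 h. The exact 2-sided permutation test gave p = 0.1 for each pair of groups, the smallest that 3 against 3 libraries allow. For type V collagen, Col5a1 to Col5a2 was 0.161 ± 0.0118 with IL-1beta and 0.171 ± 0.0144 with TNF-alpha, against 0.271 ± 0.00907 in controls (p = 0.1 for each cytokine against control, exact permutation, and 0.5 between them).

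The level of type III collagen relative to type I depended on the type I chain it was set against. At 72 h Col3a1 to Col1a1 per kilobase was 1.5 ± 0.153 with IL-1beta and 1.41 ± 0.286 with TNF-alpha, against 0.703 ± 0.0126 in controls (SD, n = 3 each). Both cytokine groups lay above the controls (p = 0.1 each, exact permutation), and they overlapped each other (p = 0.7). At 4, 12 and 24 h the TNF-alpha ratio differed from its control by −0.41, −0.13 and −0.06 on the log2 scale. Col3a1 to Col1a2, a ratio added after the data were seen, was 1.35 ± 0.0721 with IL-1beta and 0.516 ± 0.0812 with TNF-alpha, against 0.511 ± 0.0333 in controls at 72 h (SD, n = 3 each). The IL-1beta libraries lay above the controls (p = 0.1, exact permutation), and the TNF-alpha libraries overlapped them (p = 1). Postn to Col1a1 was 0.831 ± 0.0462 with IL-1beta and 0.85 ± 0.082 with TNF-alpha, against 0.325 ± 0.0345 in controls. Between IL-1beta and TNF-alpha this ratio differed by −0.03 on the log2 scale (p = 0.9, exact permutation).

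**Figure D3:**
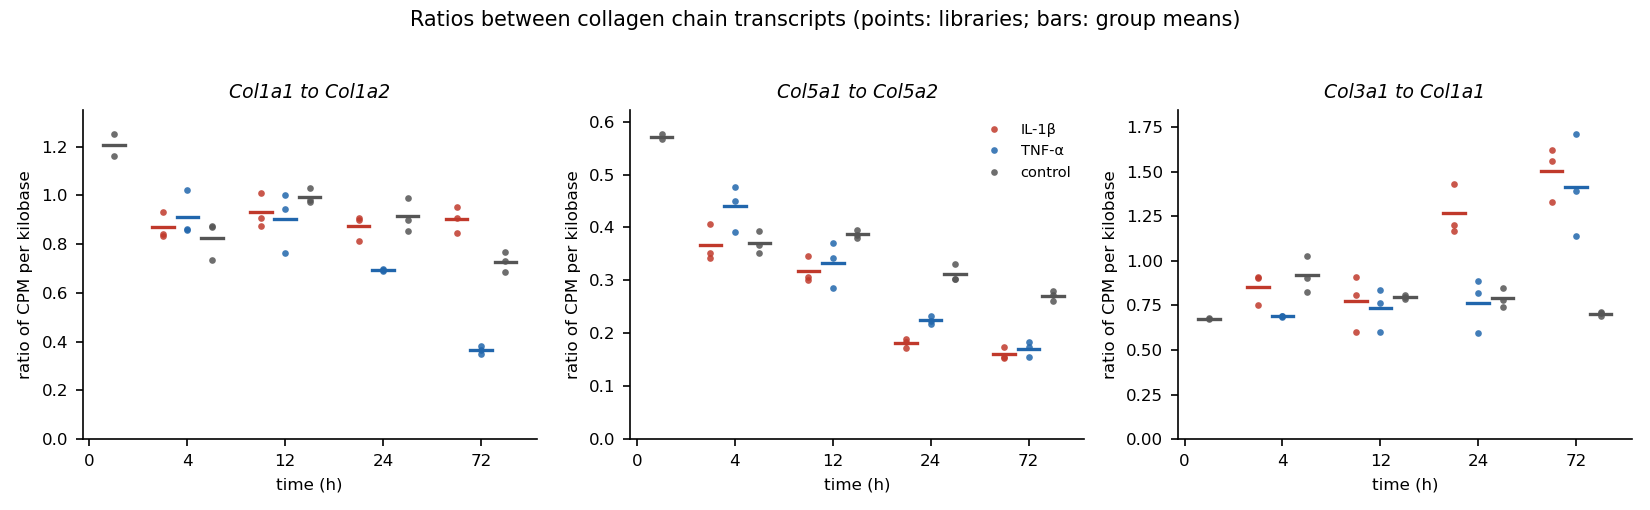
Ratios of CPM per kb between pairs of members in each library (points) with group means (short bars) for IL-1beta, TNF-alpha and control, at evenly spaced sampling times in hours. At 72 h Col1a1 to Col1a2 averaged 0.901 with IL-1beta and 0.367 with TNF-alpha, against 0.727 in controls, while Col3a1 to Col1a1 averaged 1.5 with IL-1beta and 1.41 with TNF-alpha, against 0.703 in controls.

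Col3a1, Col5a2 and Postn were each higher with IL-1beta and lower with TNF-alpha at 72 h. Col3a1 had 8430, 8217 and 8003 CPM with IL-1beta and 1799, 1700 and 1842 CPM with TNF-alpha, against 4982, 3944 and 4927 CPM in controls at 72 h. All IL-1beta libraries lay above and all TNF-alpha libraries below the controls. Its log2 fold change was 0.83 (SE 0.135, adjusted p = 4.27e-06) with IL-1beta, −1.38 (SE 0.136, adjusted p = 3.61e-10) with TNF-alpha, and 2.21 (SE 0.14, adjusted p = 2.74e-15) between IL-1beta and TNF-alpha.

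Postn, a collagen-binding protein of periosteum and ligament, had 4029, 3924 and 4156 CPM with IL-1beta and 875.4, 1092 and 918.1 CPM with TNF-alpha, against 2053, 1803 and 1783 CPM in controls. The 3 groups were again apart. Postn rose 2.15-fold with IL-1beta (log2 1.10, SE 0.134, adjusted p = 1.92e-08) and was 1.95-fold lower with TNF-alpha (log2 −0.97, SE 0.134, adjusted p = 3.82e-07). Col5a2 had 7773, 7448 and 7241 CPM with IL-1beta and 2956, 3176 and 3318 CPM with TNF-alpha, against 4640, 4176 and 5173 CPM in controls. It rose by 0.68 (SE 0.0892, adjusted p = 7.79e-08) with IL-1beta and fell by 0.57 (SE 0.0891, adjusted p = 3.55e-06) with TNF-alpha on the log2 scale.

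Col3a1 and Col5a2 are neighbours on chromosome 1 (GRCm38.p6, chr1:45311538-45349706 and chr1:45374331-45503282), with 24624 bases between them. The other members lie apart: Col1a1 at chr11:94936224-94953042, Col1a2 at chr6:4505618-4541543, Col5a1 at chr2:27886381-28039510, Col12a1 at chr9:79598987-79721141, Postn at chr3:54359267-54391041, Fn1 at chr1:71585473-71653280, Tnc at chr4:63959785-64047015 and Fbn1 at chr2:125300594-125506485. The 200 bases before the annotated start are shown for Col3a1 and Postn, which were raised by IL-1beta at 72 h, and for Col1a2, which was lowered by it, all on the plus strand and taken from RefSeq (GRCm38.p6). Capitals mark the motifs TATAAA, the core of a TATA box, CCAAT, bound by NF-Y, and GGGCGG, bound by Sp1, each searched on both strands and not overlapping another in these windows.
Col3a1, chr1:45311338-45311537: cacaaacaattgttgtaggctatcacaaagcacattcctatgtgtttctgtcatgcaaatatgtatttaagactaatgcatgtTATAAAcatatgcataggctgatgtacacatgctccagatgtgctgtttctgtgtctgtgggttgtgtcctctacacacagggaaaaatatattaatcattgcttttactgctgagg
Postn, chr3:54360907-54361106: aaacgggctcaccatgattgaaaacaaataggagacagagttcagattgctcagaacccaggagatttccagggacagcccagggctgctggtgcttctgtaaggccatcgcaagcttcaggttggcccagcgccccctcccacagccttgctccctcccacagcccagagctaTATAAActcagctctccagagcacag
Col1a2, chr6:4505418-4505617: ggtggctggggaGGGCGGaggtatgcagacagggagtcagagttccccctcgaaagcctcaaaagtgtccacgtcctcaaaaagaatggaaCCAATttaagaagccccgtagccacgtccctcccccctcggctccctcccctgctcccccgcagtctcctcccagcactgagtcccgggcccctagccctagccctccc
The Col3a1 window holds TATAAA 117 bases before the start, and the Postn window, which belongs to the second of its 2 annotated starts, holds it 26 bases before, while none was found in the window of the first. The window of the first of the 2 Tnc starts, of a gene not called with IL-1beta at 72 h, holds TATAAA 126 bases before. TATAAA was found in 9.96% of the 32851 promoter windows of this length. The Col1a2 window holds CCAAT, found in 29.3% of windows, 109 bases before the start, and GGGCGG, found in 31% of windows, 188 bases before. GGGCGG was also found in windows of Col5a1, Fbn1 and Tnc, which were not called with IL-1beta at 72 h. The GC content of the Col1a2 window is 63.5%, against 37.5% for Col3a1, 55.5% for Postn and a median of 53% over all windows. Promoters of 6 of the 10 members were available, in 8 windows, and none of these holds TGANTCA, found in 5.48% of windows, or the NF-kappaB consensus, found in 6.07%.

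Col5a1 was called at 72 h with TNF-alpha and not with IL-1beta, and Col12a1 with both. Col5a1 had 1057, 1019 and 1122 CPM with IL-1beta and 406, 514.9 and 513.5 CPM with TNF-alpha, against 1116, 1030 and 1196 CPM in controls at 72 h. The IL-1beta and control libraries interleaved, with a log2 difference of −0.06 and a 95% interval of −0.34 to 0.21 (adjusted p = 0.756), and Col5a1 fell by 1.22 (SE 0.137, adjusted p = 5.2e-09) with TNF-alpha. Col12a1 had 1837, 1802 and 1816 CPM with IL-1beta and 1724, 1438 and 1416 CPM with TNF-alpha, against 2426, 2617 and 2709 CPM in controls. It was lower with either cytokine in all libraries, by 0.51 (SE 0.0813, adjusted p = 3.48e-06) with IL-1beta and by 0.76 (SE 0.0815, adjusted p = 2e-09) with TNF-alpha on the log2 scale.

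Fibronectin was lower with IL-1beta, as were Col1a2 and Col12a1, and higher with TNF-alpha, where all collagen chains among the members were lower. Fn1 had 14750, 12840 and 13340 CPM with IL-1beta and 32080, 28430 and 25260 CPM with TNF-alpha, against 15290, 21650 and 21970 CPM in controls at 72 h. Every IL-1beta library lay below and every TNF-alpha library above the controls, although control replicate a was close to the IL-1beta libraries. Fn1 fell by 0.53 on the log2 scale (SE 0.134, adjusted p = 0.00181) with IL-1beta, rose by 0.54 (SE 0.134, adjusted p = 0.00154) with TNF-alpha, and was 2.1-fold lower with IL-1beta than with TNF-alpha (adjusted p = 4.67e-08). At 4, 12 and 24 h it was called with neither cytokine, the log2 differences running from −0.08 to 0.13.

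Tnc, higher with both cytokines at 4 h, was lower with TNF-alpha at 72 h and not called with IL-1beta. It had 284.1, 264.8 and 268.4 CPM with IL-1beta and 144.7, 131.1 and 113.2 CPM with TNF-alpha, against 323.2, 312.5 and 342.5 CPM in controls at 72 h. With TNF-alpha it fell by 1.33 (SE 0.136, adjusted p = 7.13e-10) on the log2 scale, and with IL-1beta the value was −0.26 (SE 0.133, adjusted p = 0.128), although no IL-1beta library reached the controls. Fbn1, the microfibril protein, had 479.9, 433.4 and 487.5 CPM with IL-1beta and 483.9, 595.3 and 509.2 CPM with TNF-alpha, against 448, 441.6 and 464.5 CPM in controls. The TNF-alpha call (0.23, SE 0.0861, adjusted p = 0.034) was lost without TNF-alpha 72 h replicate b, at 0.14 (adjusted p = 0.272), and without any 1 of the control 72 h libraries.

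The change of effect over time was tested as an interaction of cytokine and time in the same edgeR fit. Over the 4 times 9 of 10 members differed in the IL-1beta effect, 9 in the TNF-alpha effect and 9 in the gap between the cytokines, where 38.7%, 19.2% and 31.5% of all genes were called. Fbn1 was the member not called in any of the 3 (adjusted p = 0.148, 0.833 and 0.169). Set at 72 h against 12 h, the IL-1beta effect was higher for Col3a1 by 1.34 (SE 0.19, adjusted p = 7.62e-07), for Postn by 1.00 (SE 0.188, adjusted p = 7.2e-05) and for Col5a2 by 0.85 (SE 0.126, adjusted p = 1.9e-06), and lower for Tnc (−0.54) and Fn1 (−0.51), where 14.1% of all genes were higher and 14.1% lower. The TNF-alpha effect was lower for 6 members and higher for Fn1 by 0.61 (adjusted p = 0.0355), where 4.9% of all genes were lower and 3.64% higher. The Fn1 values ran from −0.66 to −0.34 with IL-1beta and from 0.46 to 0.70 with TNF-alpha when 1 library was left out, and did not pass the test in 7 and 8 of the 12 such fits. The TNF-alpha effect was lowest for Col1a1, at −1.89 (SE 0.246, adjusted p = 1.92e-06), and Tnc, at −1.81 (SE 0.19, adjusted p = 4.31e-08).

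Across the 38 libraries, which share 13 groups and their times, members were compared by Pearson correlation of log2 CPM. The closest pairs were Col1a2 with Col5a1 (0.962), Col1a1 with Col1a2 (0.958), Col1a1 with Col5a1 (0.956) and Col3a1 with Col5a2 (0.901). These pairs do not form separate sets, as Col3a1 also correlated with Col1a1 (0.886) and Col5a1 (0.875). Fn1 correlated between −0.273 and 0.452 with the other members and Fbn1 between −0.082 and 0.268. Among 12613 genes of a mean of at least 1 CPM, members left out, the 5 most like Col1a1 were Upf1 (0.921), Wbscr17 (0.884), Adgrl1 (0.884), Ptms and Txndc11. For Postn they were Dpt (0.909), Lox (0.871), Serpina3m (0.852), Cacna1g (0.852) and Svep1 (0.851), for Fn1 Anxa8 (0.890), Tiam1 (0.889), Alox12 (0.885), Galnt1 (0.880) and Chst1 (0.878), and for Tnc Tnn (0.918), Eln (0.896), Col6a1 (0.895), Adam12 (0.889) and Grk6 (0.881).

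Genes that fold and modify procollagen fell with both cytokines. Of 18 tested, 14 fell and 1 rose with IL-1beta at 72 h (median log2 fold change −0.37), and 17 fell and none rose with TNF-alpha (median −0.69). Over all genes at 72 h, 19.7% fell and 19.3% rose with IL-1beta, and 18.3% fell and 17.8% rose with TNF-alpha. Sparc, a collagen-binding glycoprotein with chaperone function, averaged 11720 CPM with IL-1beta, against 31300 CPM in controls, a change of −1.42 on the log2 scale, and with it Fkbp14 (−0.81), P3h1 (−1.01) and Fkbp10 (−0.74) had the smallest adjusted p. With TNF-alpha those were the prolyl hydroxylase subunits P4ha1 (−1.52) and P4ha2 (−1.37), the lysyl hydroxylase Plod1 (−1.07) and Fkbp14 (−0.73). Between the cytokines 8 of the 18 were higher and 3 lower with IL-1beta at 72 h, where 19.4% of all genes were higher and 20.4% lower. Plod1 (1.35), P4ha1 (1.06) and P4ha2 (1.25) were among those higher with IL-1beta. At 12 h 12 of the 18 fell and none rose with IL-1beta, where 15% of all genes fell. With TNF-alpha 7 fell and none rose, where 13.8% of all genes fell.

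Enzymes that process and crosslink collagen split. Of 13 tested, 4 rose and 6 fell with IL-1beta at 72 h (median 0.19), and 1 rose and 7 fell with TNF-alpha (median −0.30). Over all genes 19.3% rose and 19.7% fell with IL-1beta, and 17.8% rose and 18.3% fell with TNF-alpha. Lox, which crosslinks collagen and elastin, averaged 3247 CPM with IL-1beta, against 1920 CPM in controls (log2 0.76, SE 0.0866, adjusted p = 4.81e-09), and Bmp1, a procollagen C-proteinase, also rose (0.66), whereas Pcolce2, an enhancer of that cleavage, fell (−3.05), as did Loxl3 (−0.99). Of 10 other fibrous collagens 3 rose and 6 fell with IL-1beta (median −0.53), and 2 rose and 7 fell with TNF-alpha (median −0.81). Col5a3, a further type V chain, averaged 186.6 CPM with IL-1beta, against 31.08 CPM in controls, and 361.2 CPM with TNF-alpha, against the same controls. It rose 6-fold with IL-1beta and 11.6-fold with TNF-alpha, while Col8a1, a short-chain collagen, fell by 3.43 with IL-1beta and 1.44 with TNF-alpha on the log2 scale.

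Partners of microfibrils and elastic fibres were also divided with IL-1beta, 7 rising and 8 falling of 18 (median 0.01), and mostly lower with TNF-alpha, 2 rising and 13 falling (median −0.59). Over all genes at 72 h, 19.3% rose and 19.7% fell with IL-1beta, and 17.8% rose and 18.3% fell with TNF-alpha. Ltbp2, a microfibril protein, rose with both, by 1.81 with IL-1beta and 2.74 with TNF-alpha, and Adamtsl2 fell with both, by 4.01 with IL-1beta and 2.16 with TNF-alpha. Fbln1 rose by 2.23 with IL-1beta. Of 14 matricellular relatives of Postn and Tnc, 4 rose and 6 fell with IL-1beta (median −0.23), and 2 rose and 9 fell with TNF-alpha (median −0.66). The thrombospondins Thbs1 and Thbs2 fell with both, Thbs1 by 2.22 with IL-1beta and 0.91 with TNF-alpha, and Thbs2 by 1.66 with IL-1beta and 1.92 with TNF-alpha.

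Of 13 proteases able to cleave these proteins, most rose at 72 h with either cytokine. With IL-1beta 8, 8, 13 and 11 rose at 4, 12, 24 and 72 h, where 15.5%, 14.5%, 17% and 19.3% of all genes rose. With TNF-alpha 7, 8, 8 and 10 rose, where 10.9%, 14.6%, 13.2% and 17.8% of all genes rose. None fell at any of these times, and the others did not pass the test. At 72 h the medians were 2.23 with IL-1beta and 2.45 with TNF-alpha on the log2 scale. Mmp3, stromelysin 1, averaged 18640 CPM with IL-1beta and 14000 CPM with TNF-alpha, against 267.9 CPM in controls. Mmp13, collagenase 3, averaged 10220 CPM with IL-1beta and 1845 CPM with TNF-alpha, against 338.5 CPM in controls, and Mmp10, stromelysin 2, rose with TNF-alpha (log2 4.71) while its IL-1beta value was 0.16 (adjusted p = 0.79). Of 15 receptors of fibrous matrix 9 rose and 4 fell with IL-1beta (median 0.28), and 8 rose and 6 fell with TNF-alpha (median 0.23). Over all genes at 72 h, 19.3% rose and 19.7% fell with IL-1beta, and 17.8% rose and 18.3% fell with TNF-alpha. Cd44 rose by 1.73 with IL-1beta and 1.58 with TNF-alpha, and the collagen-binding integrin chain Itga11 fell by 0.82 with IL-1beta and 2.79 with TNF-alpha.

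**Figure D4:**
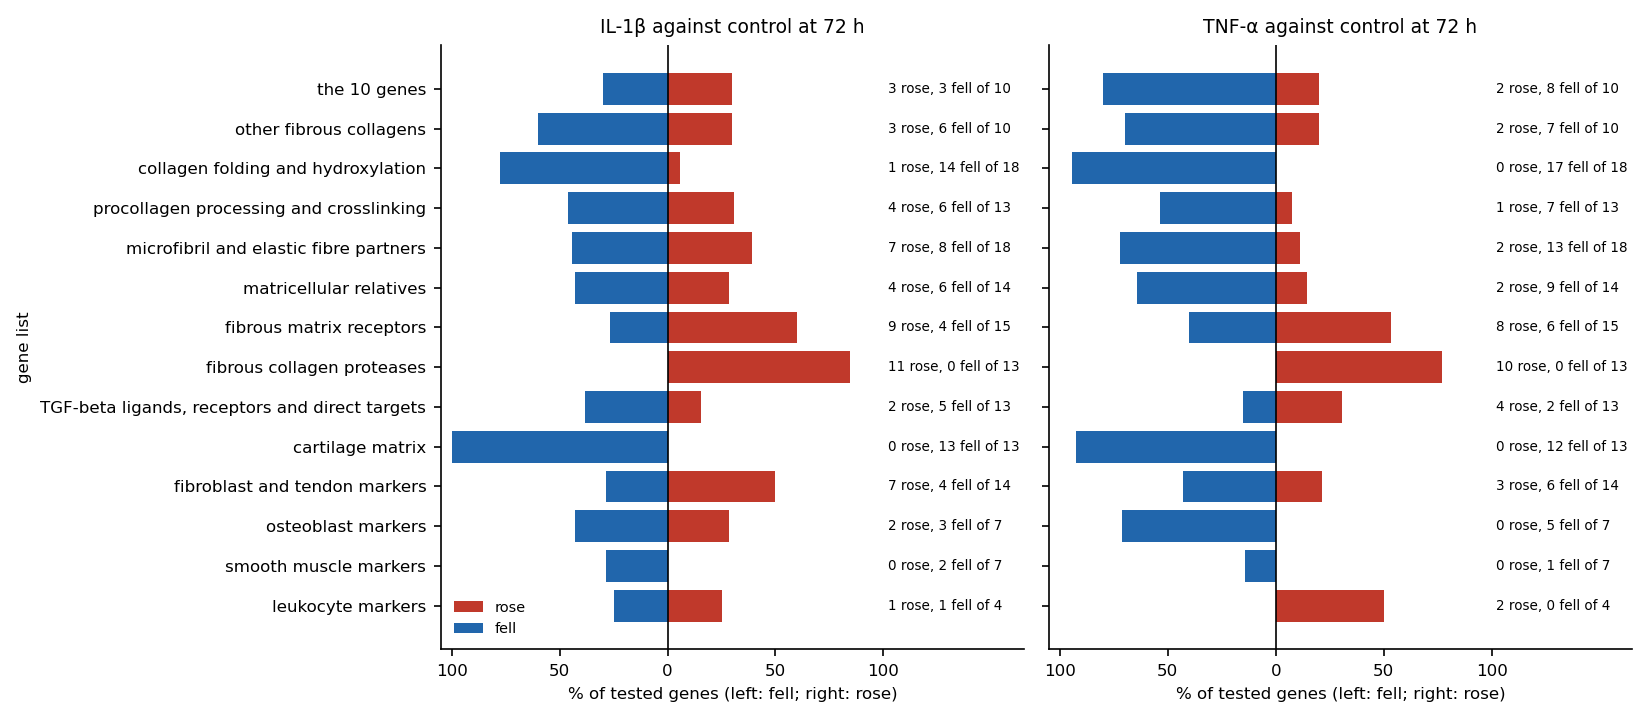
Percent of the tested genes of each list that fell (bars to the left) and rose (bars to the right) at 72 h, for IL-1beta against control and TNF-alpha against control (edgeR, adjusted p under 0.05), with the counts printed beside each bar. The endothelial markers are not drawn. Of 13 collagen proteases 11 rose with IL-1beta and 10 with TNF-alpha, and of 18 genes of collagen folding 14 fell with IL-1beta and 17 with TNF-alpha. Over all genes 19.3% rose and 19.7% fell with IL-1beta, and 17.8% rose and 18.3% fell with TNF-alpha.

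Genes of the TGF-beta pathway, which is known to raise fibrous matrix genes, were called in both directions. Of 13 tested, 2 rose and 5 fell with IL-1beta at 72 h (median −0.15), and 4 rose and 2 fell with TNF-alpha (median −0.01). Over all genes 19.3% rose and 19.7% fell with IL-1beta, and 17.8% rose and 18.3% fell with TNF-alpha. Ctgf, a target of the pathway, fell by 1.04 with IL-1beta and rose by 0.66 with TNF-alpha, and was lower with IL-1beta than with TNF-alpha, at a log2 difference of −1.70 (adjusted p = 8.74e-15). Of the members, Fn1 showed the same pair of directions, and all collagen chains, Postn and Tnc were lower with TNF-alpha. The part of this pathway in the members' changes was not tested. Tgfbr3, a co-receptor, rose by 1.15 with IL-1beta and 0.34 with TNF-alpha.

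Markers of other cell states moved with these results, and their part in them was not tested. The cartilage matrix list fell in 13 of 13 genes with IL-1beta at 72 h (median −2.54) and in 12 of 13 with TNF-alpha (median −1.16), its summed level lying between 18610 and 20120 CPM with IL-1beta and 40890 and 48770 CPM with TNF-alpha, against 89090 to 118100 CPM in controls. Over all genes 19.3% rose and 19.7% fell with IL-1beta, and 17.8% rose and 18.3% fell with TNF-alpha. Of 14 fibroblast and tendon markers 7 rose and 4 fell with IL-1beta, and 3 rose and 6 fell with TNF-alpha. Their summed level was 7530 to 8335 CPM with IL-1beta and 3512 to 4387 CPM with TNF-alpha, against 3211 to 3432 CPM in controls. This sum mainly follows Lum and Dcn, with medians of 1010 and 987 CPM over all libraries, against 191 CPM for Pdgfra, the next highest. Lum, a collagen-binding proteoglycan that cartilage also makes, rose by 1.98 with IL-1beta and 0.84 with TNF-alpha. The tendon factors Scx and Mkx fell with both, Scx by 1.54 with IL-1beta and 0.59 with TNF-alpha, and Mkx by 0.72 with IL-1beta and 0.98 with TNF-alpha.

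Summed markers of leukocytes, osteoblasts and smooth muscle differed from the controls at 72 h without overlap under both cytokines, and their part in the results was not tested. Of all genes tested singly, 51.2% with IL-1beta and 45.5% with TNF-alpha were without overlap at 72 h. Summed leukocyte markers were 30.92 to 37.58 CPM with IL-1beta and 48.69 to 70.22 CPM with TNF-alpha, against 26.29 to 29.15 CPM in controls at 72 h, and 5 of the 8 had a median under 1 CPM, Cd3e among them at a median of 0. Cd68, a macrophage marker, averaged 8.72 ± 0.739 CPM with IL-1beta and 47.2 ± 6.85 CPM with TNF-alpha, against 18.5 ± 1.25 CPM in controls (SD, n = 3 each). Lyz2, a myeloid lysozyme, averaged 23.2 ± 2.86 CPM with IL-1beta and 6.55 ± 3.75 CPM with TNF-alpha, against 6.76 ± 0.0369 CPM in controls (SD, n = 3 each). Endothelial markers summed to 1.243 to 1.756 CPM with IL-1beta and 1.407 to 2.306 CPM with TNF-alpha, against 1.32 to 2.07 CPM in controls. Osteoblast markers summed to 33.24 to 39.98 CPM with IL-1beta and 39.76 to 45.12 CPM with TNF-alpha, against 59.32 to 67.91 CPM in controls, and smooth muscle markers to 12.04 to 14.32 CPM with IL-1beta and 15.42 to 24.08 CPM with TNF-alpha, against 24.45 to 31.25 CPM in controls. Medians under 1 CPM were found for 3 of 9 osteoblast, 5 of 7 smooth muscle and 8 of 8 endothelial markers. The smooth muscle sum was mainly Acta2, at a median of 16.6 CPM over all libraries.

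The miR-29 family, known to repress collagen and other matrix mRNAs, was measured in separate small RNA libraries of the same groups, 39 in all with 4653364 to 17994498 counts. Its 3 main mature strands share bases 2 to 8, the seed that pairs with targets, shown in capitals below (RefSeq GRCm38.p6).
miR-29a-3p: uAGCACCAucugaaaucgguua
miR-29b-3p: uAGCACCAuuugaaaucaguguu
miR-29c-3p: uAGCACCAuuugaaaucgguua
Counted from the 5′ end, miR-29a-3p differs from miR-29c-3p by C10U alone and from miR-29b-3p by C10U, G18A, U21G and A22U over the 22 bases compared.

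miR-29b-3p was higher with both cytokines at 72 h. It had 89.6, 87.1 and 88.6 CPM with IL-1beta and 111, 77 and 77.4 CPM with TNF-alpha, against 56.1, 53.8 and 63 CPM in controls. Neither cytokine group overlapped the controls. It rose 1.54-fold with IL-1beta (log2 0.62, SE 0.145, adjusted p = 0.0024, edgeR) and 1.54-fold with TNF-alpha (log2 0.62, SE 0.146, adjusted p = 0.00202). Of the 588 miRNAs tested, 13.4% were called with IL-1beta and 29.1% with TNF-alpha. TMM factors of the small RNA libraries were lowest in this TNF-alpha group, at 0.6765 in replicate b and 0.7729 in replicate c. The TNF-alpha call was lost when libraries were scaled by their totals (0.43, adjusted p = 0.0942) and when only the compared libraries were fitted (0.70, adjusted p = 0.0937). Between IL-1beta and TNF-alpha the log2 difference of miR-29b-3p was −0.00 (SE 0.145, adjusted p = 0.999). Its relation to the member mRNAs, measured in separate libraries, was not tested.

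The most abundant form, miR-29a-3p, had 2780, 3030 and 3050 CPM with IL-1beta and 3620, 2840 and 2120 CPM with TNF-alpha, against 2820, 2500 and 2600 CPM in controls at 72 h. The groups overlapped, with log2 differences of 0.16 (adjusted p = 0.708) with IL-1beta and 0.12 (adjusted p = 0.662) with TNF-alpha. miR-29c-3p had 97.2, 103 and 111 CPM with IL-1beta and 122, 67.1 and 62.3 CPM with TNF-alpha, against 104, 99.8 and 95.2 CPM in controls. TNF-alpha replicate a stood above the other two for both, and without it miR-29c-3p fell by 0.63 (adjusted p = 0.000825). At 4, 12 and 24 h no strand of the family was called with either cytokine (edgeR), where 0.85%, 2.72% and 3.91% of miRNAs were called with IL-1beta and 0.68%, 1.53% and 4.25% with TNF-alpha. With TNF-alpha miR-29a-3p was called at 24 h when only the compared libraries were fitted (0.36, adjusted p = 0.0259), and miR-29b-1-5p at 12 h without TNF-alpha replicate c (1.29, adjusted p = 0.0441) and by DESeq2 (1.11, adjusted p = 0.0494). At 72 h the 4 opposite strands (miR-29a-5p, miR-29b-1-5p, miR-29b-2-5p and miR-29c-5p, averaging 0.416 to 16.9 CPM) were likewise not called in the fit of all libraries. Leaving out 1 library changed that for 3 of them with TNF-alpha. Without TNF-alpha replicate a miR-29a-5p was at −1.19 (adjusted p = 0.00124, against −0.35 with it) and miR-29c-5p at −0.90 (adjusted p = 0.0247, against −0.65), the second also passing when libraries were scaled by their totals (−0.86, adjusted p = 0.0371). miR-29b-1-5p was at 1.03 without TNF-alpha replicate b (adjusted p = 0.022) or control replicate b (adjusted p = 0.0443), against 0.69 with them.

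**Figure D5:**
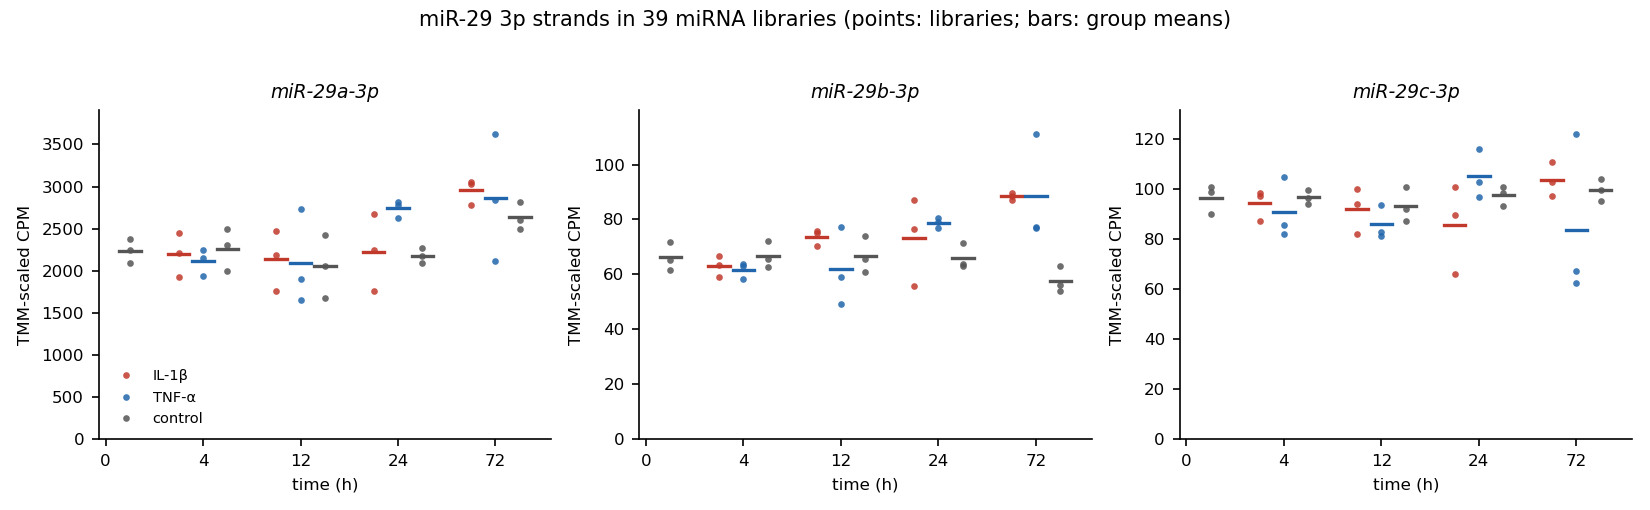
CPM of the 3 main miR-29 strands in each small RNA library (points) with group means (short bars) for IL-1beta, TNF-alpha and control, at evenly spaced sampling times in hours. At 72 h miR-29b-3p lay at 87.1 to 89.6 CPM with IL-1beta and 77 to 111 CPM with TNF-alpha, above 53.8 to 63 CPM in controls, while miR-29a-3p overlapped between groups.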

How the data were processed

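Total RNA of engineered mouse cartilage was sequenced as ribosome-depleted mRNA libraries and as small RNA libraries, per the labels' protocols. The authors deposited raw counts per gene and per mature miRNA. Tools listed in the submitters' processing notes are STAR, featureCounts, Trimmomatic and cutadapt, with the build mm10 and no versions. Neither strand setting nor annotation is given in these sources, so reads of overlapping or antisense genes cannot be told apart. The deposited gene length, a value other than a count, was used for levels per kilobase.

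Counts of 38 mRNA and 39 small RNA libraries were fitted with edgeR 4.0.16 (limma 3.58.1, R 4.3.3, R package data.table of version 1.17.8; quasi-likelihood F test, TMM scaling, filterByExpr, 1 coefficient for each of 13 groups, no covariate), and calls were made at an adjusted p under 0.05 (Benjamini-Hochberg, over all features tested). Tested genes held 99.905% of counts, and 2199 lines without a gene name were left out. TMM factors lay between 0.8639 and 1.124 in the mRNA libraries and between 0.6765 and 1.122 in the small RNA libraries, and replicates varied with a common biological coefficient of variation of 8.26% for mRNA and 19.3% for miRNA. CPM values use the TMM-scaled library size. The script was tested on simulated counts. Ratios of members were compared by exact permutation. Same-letter replicates of different groups were not paired, their deviations correlating at −0.13 to 0.13. DESeq2 1.42.0 was an alternative, and figures used matplotlib 3.10.9 under Python 3.11.15.

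The members, gene lists and tests were chosen with earlier results of these data known. All members were named, with up to 4 genes of each list by smallest adjusted p, the 5 genes most like Col1a1, Postn, Fn1 and Tnc, and every miR-29 strand. Genes named by other choices, such as those described with both cytokines, and the markers of other cell types were chosen after their values were seen. Sequences came from RefSeq tables for GRCm38.p6.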

Additional observations from a re-analysis of the deposited data

Results flagged for a closer look

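For 8 of the 10 genes the effect of at least 1 cytokine, taken against the control of the same time, differed between 72 h and 12 h by a test of that difference (edgeR, adjusted p under 0.05). By cytokine, 5 of 10 members were called with IL-1beta, where 28.2% of all genes were, and 7 of 10 with TNF-alpha, where 8.54% were. The share of all genes called with at least 1 cytokine was not counted. With IL-1beta the effect at 72 h lay above that at 12 h for Col3a1 by 1.34, Postn by 1.00 and Col5a2 by 0.85 on the log2 scale. It lay below for Tnc (−0.54) and Fn1 (−0.51). With TNF-alpha it lay below for Col1a1 (−1.89), Tnc (−1.81), Postn (−1.31), Col1a2 (−1.03), Col3a1 (−0.75) and Col5a1 (−0.75), and above for Fn1 (0.61). Without single libraries, Tnc with IL-1beta ran from −0.63 to −0.46, with an adjusted p of up to 0.0896. The Fn1 value with IL-1beta was −0.34 (adjusted p = 0.187) without IL-1beta 12 h replicate c.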

How the results depend on the processing

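Of 180 member values in 18 comparisons, calls were lost in 2 with DESeq2 size factors, 2 with the DESeq2 Wald test (2 gained), 9 with scaling by library totals (3 gained) and 9 when only the compared libraries were fitted (12 gained), and without the low-count filter 21 were gained. No called direction reversed under these or when single libraries were left out. With the mismatched column kept as a 39th library, 98 calls were lost, called members fell to 3 for IL-1beta against TNF-alpha at 72 h, 1 for TNF-alpha at 72 h and 0 in every other comparison, and 4 values reversed: Col12a1 (0.22) and Fbn1 (0.15) for control 4 h against 0 h, and Col1a2 (0.15) and Fbn1 (0.14) for control 72 h against 0 h. Called members numbered 2 for control 24 h against 12 h and 1 for TNF-alpha at 4 h by library totals, 5 for IL-1beta at 4 h, 5 for TNF-alpha at 4 h and 3 between the cytokines at 12 h without the filter, and 0 between the cytokines at 4 and 12 h, 4 for TNF-alpha at 12 h and 5 at 4 h with only the compared libraries. A replicate block by letter lost 5 calls and moved no count by over 1.5 times: Col1a1 at 12 h with IL-1beta (adjusted p = 0.0564) and TNF-alpha (0.0554), Col5a1 at 4 h with IL-1beta (0.0518), the Fn1 IL-1beta effect at 72 h against 12 h (0.0524) and Tnc in control 24 h against 12 h (0.0505). Against control 12 h, TNF-alpha 4 h had 2 members called, both higher, where 13.4% of all genes were.

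Leaving out 1 library at a time gave 2 to 3, 2 to 5, 5 and 6 called members with IL-1beta at 4, 12, 24 and 72 h, 1 to 2, 4 to 8, 8 to 9 and 9 to 10 with TNF-alpha, and 0 to 1, 0 to 1, 6 to 7 and 8 to 10 between the cytokines. For the effect at 72 h against 12 h it gave 3 to 5 with IL-1beta, the lowest without IL-1beta 72 h replicate b or c, and 6 to 7 with TNF-alpha. For controls it gave 3 to 5 at 4 h against 0 h, the lowest without control 0 h replicate c, 2 to 5 at 24 h against 12 h, 7 to 8 at 72 h against 12 h and 8 to 10 at 72 h against 0 h. Causes were not tested. Scaling by library totals moved the median of all genes to −0.13 at 4 h with IL-1beta (−0.03 with TMM), 0.10 at 72 h with TNF-alpha (−0.01), −0.11 between the cytokines at 72 h (−0.01) and 0.14 for control 24 h against 12 h, and the share of higher among called genes to 67.1% at 72 h with TNF-alpha (49.3% with TMM), 40.5% at 4 h with TNF-alpha (50.7%), 28.4% at 4 h with IL-1beta (47.4%), 27.2% and 34.9% between the cytokines at 4 and 72 h (46.1% and 48.7%), 77.1%, 65.4% and 62% for controls at 24 h against 12 h, 72 h against 12 h and 72 h against 0 h (47.2%, 50.5% and 47.8%), and 64.4% for the TNF-alpha effect at 72 h against 12 h (42.6%). The lowest count of a member in any library was 2716, and that of a miR-29 strand was 1.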
